A study of Mus musculus with 30 samples.

Results

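Mouse embryonic stem (ES) cells after 5 days of differentiation were compared with undifferentiated ES cells at day 0, on arrays labelled without prior amplification of the RNA. Every gene that a probe set of the array names on its own was taken, which gave 19938 genes, with no choice by measured value. The comparison uses 6 of the 30 arrays of the series, 3 at day 5 and 3 at day 0. The day 5 cells are labelled endoderm and were sorted as Kit positive and Sox2 dim, and the day 0 cells were sorted as Sox2 bright. Kit is a receptor tyrosine kinase carried by early endoderm, and Sox2 is a pluripotency factor. Both groups are ES cells of C57BL/6x129SvJae background, their RNA was isolated with the miRNeasy kit and labelled with the Affymetrix kit, and the labels describe 3 biological replicates of each. The sorting gates differed between the days, so the effect of differentiation cannot be told apart from that of the gate, and the levels of Sox2 and Kit are no findings. The labels name no cultures, passages or further ES lines, so p-values measure only the spread between samples within groups. That spread was taken over all 18 unamplified arrays of the series, not over the 6 ES arrays alone. The study set these cells beside induced pluripotent stem (iPS) clones and embryo cells to ask how alike the endoderm of each is. The clones ST5 and ST8, on 12 arrays of the same labelling, and a further 6 ES arrays labelled after amplification serve as comparisons below.

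Mouse ES cells stand for the naive epiblast of the early embryo and are held in that state by a network of factors that includes Pou5f1, Sox2, Nanog, Esrrb and Klf4. On the way to endoderm, epiblast cells leave the naive state, pass through a primed state and the primitive streak under Nodal and Wnt signals, and then switch on Sox17, Foxa2 and Gata factors. The resulting definitive endoderm gives rise to liver, pancreas and the epithelia of gut and lung, and its anterior part secretes antagonists of Wnt, BMP and Nodal. Visceral and parietal endoderm are extraembryonic tissues that share many of these genes and are told apart by others, such as Afp for visceral endoderm.

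Values are log2 expression after RMA, so a difference of 1 is a doubling, and array medians over all probe sets lay between 5.535 and 5.573 at day 5 and between 5.514 and 5.526 at day 0. Values of single arrays are listed in the order of replicates 1, 2 and 3, and each difference is day 5 minus day 0 with its standard error. Day 5 replicate 1 stood apart from its group: 391 and 343 genes differed more than 2-fold between it and replicates 2 and 3, against 3 genes between replicates 2 and 3. The day 0 arrays differed in 0, 0 and 1 genes. Genes named for their role, beyond the rule of size given with the processing, were chosen after their values were seen. Each array holds the RNA of many cells, so a change in RNA per cell and a change in the number of cells of a kind cannot be told apart.

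The label of the day 5 cells was set against marker genes. Sox17 had 9.35, 7.15 and 7.28 at day 5, against 5.09, 5.18 and 5.01 at day 0. Foxa2 had 8.86, 7.91 and 7.87 at day 5, against 5.51, 5.94 and 5.65 at day 0. Hhex, a factor of anterior endoderm, had 9.61, 7.53 and 7.43 at day 5, against 5.19, 5.23 and 5.20 at day 0. All day 5 arrays lay above all day 0 arrays for these genes, with replicate 1 the highest. Without replicate 1 the rises of Sox17, Foxa2 and Hhex still passed, at 2.12 (adjusted p = 0.000482), 2.19 (adjusted p = 1.48e-05) and 2.27 (adjusted p = 0.000176). Sox7, which marks extraembryonic endoderm, had 5.34, 5.10 and 5.19 at day 5 and 5.25, 5.51 and 5.31 at day 0, where the groups overlap. Afp lay between 3.74 and 4.07 at day 5 and between 3.91 and 4.0 at day 0, below the array medians. Of the sorting genes, Sox2 had 7.67, 8.46 and 8.22 at day 5, against 10.47, 10.14 and 10.36 at day 0. Kit had 9.77, 7.97 and 8.16 at day 5, against 8.51, 8.20 and 8.37 at day 0, so that only replicate 1 exceeded day 0.

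**Figure D1:**
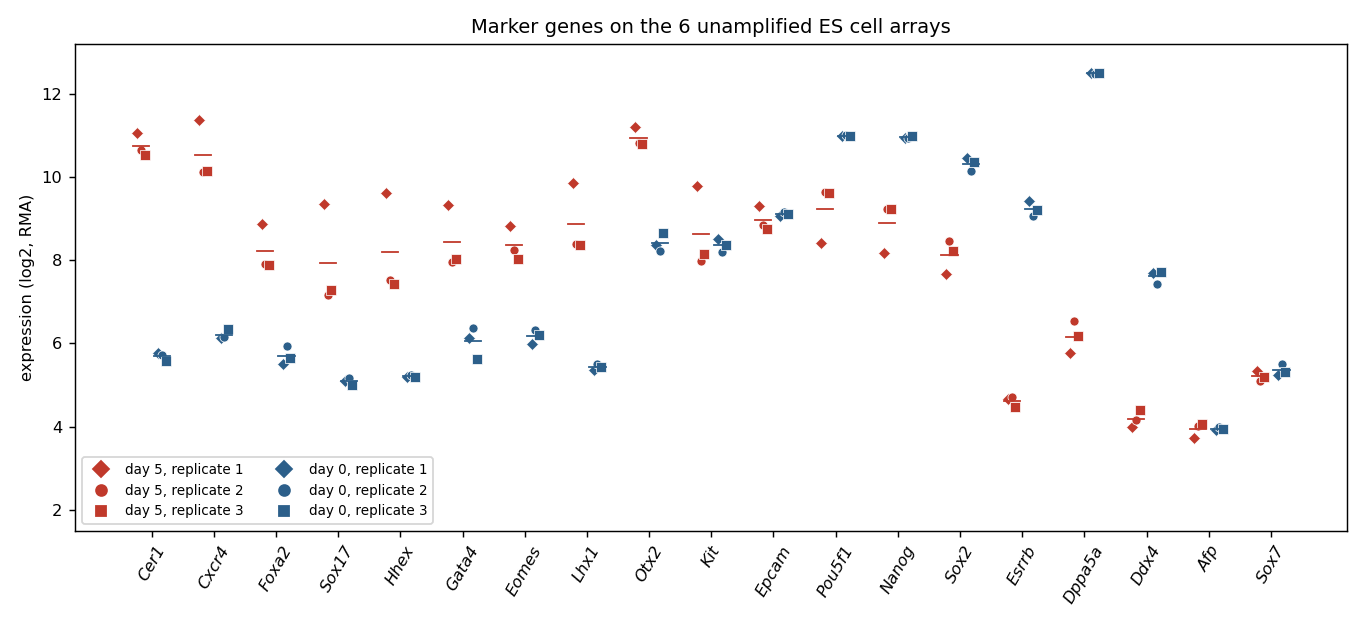
Expression (log2, RMA) of marker genes on the 6 unamplified ES cell arrays, day 5 in red to the left of day 0 in blue, with the symbol giving the replicate and the line the group mean. Day 5 replicate 1 (diamond) lies highest for Cxcr4, Sox17, Hhex, Gata4 and Kit and lowest for Pou5f1 and Nanog, while Afp and Sox7 lie at the same low level on both days.

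Of the 19938 genes, limma called 7689 at an adjusted p under 0.05 (38.6%), 3765 higher at day 5 (18.9%) and 3924 lower (19.7%). The median difference over all genes was 0.02, and these shares and this median are the background against which each gene list is read. With dim genes left out, 2985 of 9969 genes were called higher and 3317 lower, larger shares than over all genes. The background is therefore low for lists of well expressed genes, and the lists were not matched for level. At least 2-fold, 724 genes were higher (3.63%) and 590 lower (2.96%), and 45 and 51 exceeded 8-fold. The 3 day 5 arrays lay wholly above or below the 3 day 0 arrays for 9612 genes (48.2%). Without day 5 replicate 1, 7325 genes were called, 3598 higher and 3727 lower, and 6711 of the 7689 kept their call and direction. With the arrays shifted to a common median, 38.5% of the calls were higher in place of 49%, so the balance of both directions depends on the scaling.

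The largest rise of all genes was that of Amot, an angiomotin that regulates Hippo signalling, which had 11.57, 10.68 and 10.65 at day 5, against 5.63, 5.71 and 5.94 at day 0. In the list of Hippo and angiomotin genes, 6 of 21 rose and 7 fell. Cyp26a1, which breaks down retinoic acid, had 10.68, 9.94 and 9.88 at day 5, against 4.85, 5.54 and 5.84 at day 0. Cpm, a membrane carboxypeptidase, had 10.02, 8.68 and 8.70 at day 5, against 4.69, 4.68 and 4.36 at day 0. Pga5, a pepsinogen, had 11.19, 8.97 and 9.20 at day 5, against 5.31, 5.57 and 4.99 at day 0. For all of these the groups are far apart and replicate 1 is the highest array. Bmp2, a ligand of the BMP pathway, had 9.12, 8.36 and 8.24 at day 5, against 3.93, 4.10 and 4.41 at day 0. Frzb, a secreted Wnt antagonist, had 8.63, 8.56 and 8.46 at day 5, against 4.38, 4.39 and 4.38 at day 0. Capn6, a calpain without protease activity, had 8.51, 8.85 and 9.01 at day 5, against 4.65, 4.68 and 4.68 at day 0. Frzb and Capn6 were even across the day 5 arrays, and their differences were 4.17 ± 0.24 (adjusted p = 1.14e-09) and 4.11 ± 0.16 (adjusted p = 8.43e-12). Others among the 15 largest rises were Clic6, a chloride channel protein, at 4.30 ± 0.36, Tph1, which makes serotonin, at 4.17 ± 0.33, Dgkk, a diacylglycerol kinase, at 4.13 ± 0.30, Greb1l at 4.0 ± 0.20 and Igfbp5, which binds insulin-like growth factors, at 3.97 ± 0.24.

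Most transcription factors of endoderm rose. Of 20 measured, 13 rose and 1 fell, with a median difference of 1.32, and 11 rose and 1 fell without replicate 1, with a median of 0.83. Rfx6, a factor of gut and pancreatic endocrine cells, had 9.36, 7.05 and 7.26 at day 5, against 4.53, 4.33 and 4.40 at day 0. Gata6, which drives endoderm fate, had 9.89, 8.40 and 8.20 at day 5, against 4.93, 5.65 and 5.63 at day 0. Gata4, its close relative, had 9.33, 7.95 and 8.03 at day 5, against 6.14, 6.38 and 5.62 at day 0. The arrays of both days are separate for each of them, and replicate 1 lies well above the other day 5 arrays. Gata3 rose by 3.35 ± 0.27, Tcf7l2, a nuclear partner of beta-catenin, by 2.80 ± 0.30, and the liver and gut factors Hnf4a and Foxa1 by 1.42 ± 0.31 and 1.35 ± 0.24. Foxa3 rose by 1.29 ± 0.45 (adjusted p = 0.0313) with 7.78, 5.73 and 5.91 at day 5, against 5.23, 4.96 and 5.37 at day 0, a call lost without replicate 1 (0.63, adjusted p = 0.182). Ehf, an epithelial factor of the ETS family, rose by 0.73 ± 0.26 (adjusted p = 0.033) and also lost its call without replicate 1 (adjusted p = 0.181). Elf3, of the same family, changed by -0.70 ± 0.24 (adjusted p = 0.0283), with 6.99, 5.92 and 5.84 at day 5, against 7.01, 6.88 and 6.94 at day 0, where replicate 1 sat at the day 0 level. The Elf3 call was lost without day 5 replicate 2 or 3, without any day 0 array and with the 6 ES arrays alone (adjusted p 0.0526 to 0.149), and those of Foxa3 and Ehf were also lost with the 6 ES arrays alone and without day 0 arrays. Prdm1, a repressor in many lineages, had 8.27, 6.74 and 6.91 at day 5, against 6.69, 6.40 and 6.54 at day 0, and did not pass (adjusted p = 0.119).

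Regional factors of the foregut, which set the place of each organ along the gut, rose in 7 of 21 cases and fell in 2 (median 0.18), and 1 of the fallers is the sorting gene Sox2. Prox1, which acts in liver and pancreas buds, had 6.00, 6.68 and 6.65 at day 5, against 4.22, 4.42 and 4.21 at day 0, with replicate 1 the lowest day 5 array. Irx3 and Irx5, homeobox genes of patterning, rose by 1.66 ± 0.20 and 1.21 ± 0.28, and Tbx1, a factor of the pharynx, by 1.18 ± 0.18. Nkx2-1, of lung and thyroid, and Pdx1, of the pancreas, differed by 0.11 ± 0.09 (adjusted p = 0.386) and 0.06 ± 0.12 (adjusted p = 0.73), with every array below the array medians. Among 18 posterior Hox and Cdx genes 0 rose and 1 fell: Hoxd13 had 4.38, 4.11 and 4.24 at day 5, against 4.74, 4.91 and 5.17 at day 0. In the primitive streak list 5 of 16 genes rose and 2 fell. Lhx1, a homeobox gene of the anterior streak, had 9.87, 8.39 and 8.37 at day 5, against 5.36, 5.50 and 5.43 at day 0. Eomes, which endoderm formation requires, rose by 2.19 ± 0.22 with separate groups, and Gsc, of the organizer, by 2.32 ± 0.25. Mixl1, a streak gene upstream of endoderm, had 6.77, 6.33 and 6.19 at day 5, against 5.76, 5.90 and 5.63 at day 0. Its arrays did not overlap between the days but the difference of 0.67 ± 0.29 did not pass (adjusted p = 0.0844).

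Surface and secreted genes of definitive endoderm rose in 13 of 22 cases and fell in 0 (median 1.0), and in 12 and 1 without replicate 1, with a median of 0.65. The list holds the sorting gene Kit, without which 13 of 21 rose (median 1.05). Its largest rises were those of Cer1, at 5.05, Spink1 and Cxcr4. Tmprss2, a membrane protease, had 9.81, 7.44 and 7.74 at day 5, against 5.05, 5.04 and 5.01 at day 0. Its days do not overlap, and replicate 1 is far above the other day 5 arrays. Krt19, a keratin of simple epithelia, rose by 2.90 ± 0.22, and Krt8 and Krt18, which pair in such epithelia, by 3.08 ± 0.21 and 3.39 ± 0.20. The list of 22 keratins and epithelial factors split, with 9 risen and 5 fallen (median 0.19). Its fallers included Grhl3, Grhl1, Esrp2 and the keratin Krt23. The calls of Esrp2 and Krt23 were each lost with some of the arrays left out. Epcam, an epithelial adhesion molecule, had 9.31, 8.86 and 8.76 at day 5, against 9.07, 9.16 and 9.11 at day 0, and passed only without replicate 1, where it changed by -0.31 (adjusted p = 0.0033).

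Lists of other lineages that the sort could hold were read against the background of 18.9% higher and 19.7% lower. In the list of visceral endoderm and yolk sac genes 10 of 24 rose and 2 fell, and 7 and 1 without replicate 1. Slc39a8, a zinc transporter, had 10.36, 9.82 and 9.77 at day 5, against 6.06, 6.21 and 6.67 at day 0, the largest rise of the list. Its day 5 arrays lie close together. Rbp4, the retinol carrier of plasma, had 8.37, 6.65 and 6.80 at day 5, against 4.98, 5.03 and 5.03 at day 0. Ttr, the thyroxine carrier, had 6.76, 5.92 and 6.09 at day 5, against 4.88, 4.76 and 4.56 at day 0. Apoa1, a lipoprotein of liver and yolk sac, had 7.68, 6.32 and 6.30 at day 5, against 5.20, 5.28 and 5.22 at day 0. These 3 genes were higher on every day 5 array, and highest in replicate 1. Afp, Alb and Amn, further markers in the same list, differed by -0.01, 0.03 and 0.03 and lay near or below the array medians on both days. The markers of this list were thus split between rises and no change. Apoa2 went the other way, at 5.83, 5.85 and 5.90 at day 5, against 7.88, 7.65 and 7.72 at day 0. The mean level of that list was 5.80 to 6.08 at day 5, against 5.37 to 5.39 at day 0. Of 16 parietal endoderm genes 3 rose (18.8%) and 2 fell (12.5%), no more than among all genes. The largest riser of the list was Pga5, given above among the largest rises of all genes. The others were Pth1r, a hormone receptor, at 1.62 ± 0.31, and Lamb1. The call of Lamb1 was lost without day 5 replicate 1, without day 0 replicate 1 or 2 and with a common median.

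Of 24 mesoderm and heart genes 7 rose and 0 fell, among them Tbx20, a cardiac factor, at 3.37 ± 0.26, Isl1, shared by heart progenitors and foregut, at 3.70 ± 0.33, and the myosin light chain Myl3 at 1.73 ± 0.29. Of 21 endothelial and blood genes 4 rose (19%) and 4 fell (19%), close to the shares of all genes, and the risers numbered 2 or 1 without day 5 replicate 2 or 3 and without day 0 replicate 1 or 3. Pecam1, an adhesion molecule of endothelium that naive ES cells also carry, had 4.25, 4.64 and 4.41 at day 5, against 7.52, 7.14 and 7.41 at day 0. Runx1, the blood factor, rose by 1.76 ± 0.30. Neural and surface ectoderm genes rose in 8 of 25 cases and fell in 4. Those that rose included Hesx1, of the forebrain and pituitary, at 2.45 ± 0.39, and Rax, of the eye field, at 2.25 ± 0.44, and those that fell included Tubb3, a neuronal tubulin, which fell by 1.46 (SE 0.19). Of 14 trophoblast genes 6 rose and 1 fell, Tfap2c, which is shared with naive and germ cells and fell by 3.22 (SE 0.15).

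Wnt signalling genes are given by role. Among 29 ligands and receptors 14 rose and 3 fell (median 0.21), and 12 and 2 without replicate 1. Of the 14 receptors 13 rose and 1 fell (11 and 0 without replicate 1), and of the 15 ligands 1 rose and 2 fell. The receptor gene Fzd8 had 9.90, 9.63 and 9.43 at day 5, against 6.30, 6.18 and 6.47 at day 0. Fzd3 rose by 1.78 ± 0.12, Fzd2 by 1.77 ± 0.11 and Fzd5 by 1.67 ± 0.31, while Fzd10 changed by -0.42 ± 0.14 (adjusted p = 0.0255), a call lost without replicate 1 (adjusted p = 0.15), with the 6 ES arrays alone and without day 0 replicate 1 or 2. Of the ligands, Wnt8a, of the primitive streak, had 5.36, 5.36 and 5.59 at day 5, against 6.46, 6.96 and 6.75 at day 0, and Wnt7b fell by 0.48 (SE 0.08). Wnt5a, a noncanonical ligand, had 8.27, 6.64 and 6.73 at day 5, against 5.74, 5.85 and 6.17 at day 0, and its rise of 1.29 ± 0.46 (adjusted p = 0.0352) was lost without replicate 1 (adjusted p = 0.193), without any day 0 array and with a trended robust spread.

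Secreted Wnt antagonists split, with 8 of 19 risen and 6 fallen (9 and 4 without replicate 1). Besides Frzb, Dkk1 rose by 3.16 ± 0.33, Sfrp5 by 2.75 ± 0.46 and Sfrp1 by 2.01 ± 0.27. Wif1 had 4.98, 6.13 and 6.48 at day 5, against 4.70, 4.90 and 4.83 at day 0, so that replicate 1 stayed near day 0 and the other day 5 arrays lay well above it. Dkk3 fell by 1.02 (SE 0.13). Among 8 targets of the pathway 2 rose and 3 fell. Lgr5, a target that is itself a receptor of R-spondins, had 7.51, 8.31 and 7.87 at day 5, against 4.79, 4.76 and 4.87 at day 0, groups widely apart with replicate 1 the lowest day 5 array. Axin2, a feedback inhibitor induced by Wnt, had 5.50, 6.01 and 6.10 at day 5, against 6.45, 6.68 and 6.64 at day 0, and Ccnd1, cyclin D1, had 7.63, 8.40 and 8.35 at day 5, against 9.85, 9.98 and 9.92 at day 0. Lef1, a nuclear effector, had 6.60, 7.24 and 7.18 at day 5, against 6.61, 6.64 and 6.58 at day 0, and its difference of 0.40 ± 0.15 (adjusted p = 0.041) came from replicates 2 and 3. That call was lost without day 5 replicate 2 or 3, without any of the day 0 arrays, with the 6 ES arrays alone and under both other scalings (adjusted p 0.0718 to 0.188).

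**Figure D2:**
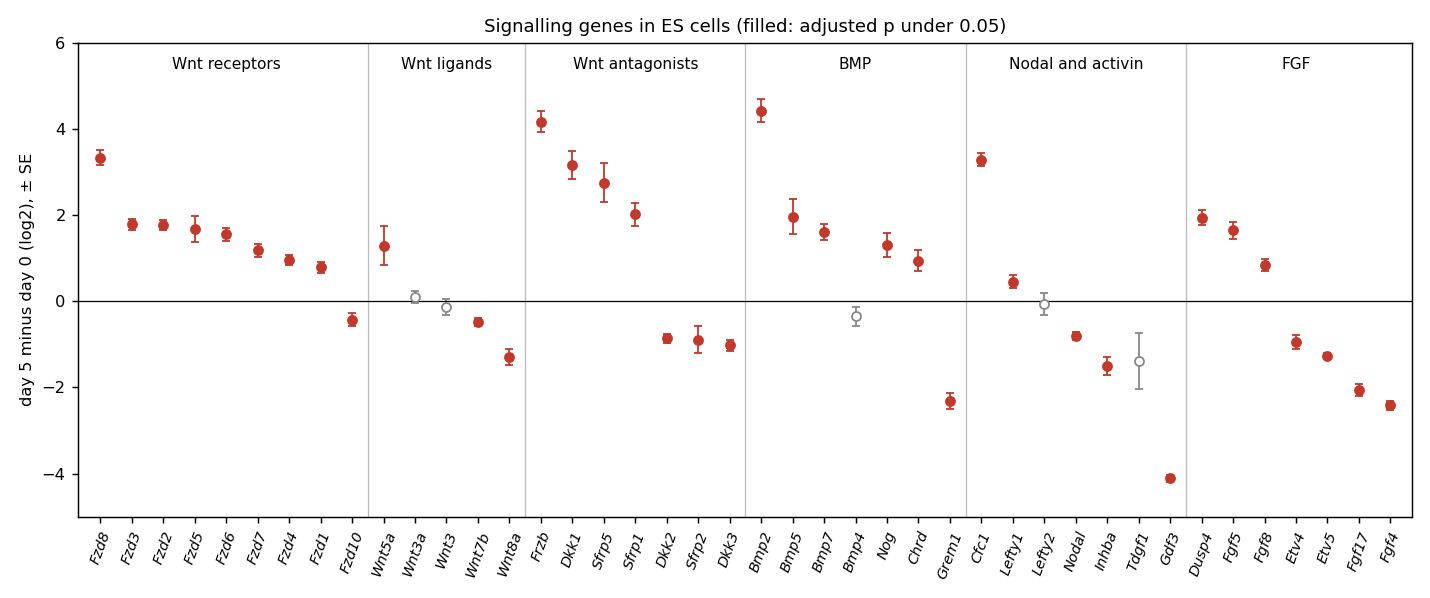
Day 5 minus day 0 (log2, with standard error) of signalling genes in ES cells, grouped by pathway, with filled points for genes called at an adjusted p under 0.05 and open points for the others. Wnt receptors lie above 0 apart from Fzd10, while Wnt antagonists and the BMP, Nodal and FGF genes lie on both sides, from Bmp2 at 4.42 to Gdf3 at -4.11.

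Genes of the BMP pathway rose in 16 of 24 cases and fell in 2 (median 0.78), with the same counts without replicate 1. Of the ligands besides Bmp2, Bmp7 had 8.06, 7.64 and 7.62 at day 5, against 6.08, 6.35 and 6.07 at day 0. Bmp5 had 5.20, 6.77 and 6.88 at day 5, against 4.31, 4.28 and 4.37 at day 0, with replicate 1 between the groups. Bmp4 had 6.16, 6.94 and 6.95 at day 5, against 7.04, 7.04 and 7.03 at day 0, and its difference of -0.35 (SE 0.23) did not pass (adjusted p = 0.259). Among the targets, Id1, Id2 and Id3, inhibitors of helix-loop-helix factors, rose by 2.66 ± 0.15, 2.09 ± 0.19 and 2.24 ± 0.24, and Smad6, a feedback inhibitor, by 1.42 ± 0.14. Extracellular antagonists went both ways: Nog rose by 1.31 ± 0.29 and Chrd by 0.95 ± 0.23, each least in replicate 1, and Grem1 had 4.97, 5.21 and 5.87 at day 5, against 7.70, 7.62 and 7.68 at day 0.

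In the Nodal and activin pathway 15 of 26 genes rose and 7 fell (12 and 7 without replicate 1). Cfc1, a co-receptor of Nodal, had 8.85, 8.65 and 8.60 at day 5, against 5.32, 5.34 and 5.58 at day 0. Its relative Tdgf1 had 9.38, 11.21 and 10.93 at day 5, against 11.91, 11.85 and 11.92 at day 0. All Tdgf1 day 5 arrays lay lower, replicate 1 by far the most, and the difference of -1.39 (SE 0.64) did not pass (adjusted p = 0.104). Nodal itself had 7.68, 7.65 and 7.57 at day 5, against 8.38, 8.46 and 8.48 at day 0, and Gdf3, a related ligand of pluripotent cells, had 4.98, 4.93 and 5.02 at day 5, against 9.16, 9.06 and 9.05 at day 0. Inhba, an activin subunit, fell by 1.51 (SE 0.20) and Pcsk6, a convertase that activates such ligands, fell by 1.80 (SE 0.10), while Tgfb2 rose by 3.11 ± 0.18 and the effector Smad3 by 1.23 ± 0.13. Of the feedback antagonists, Lefty1 rose by 0.46 ± 0.14 (adjusted p = 0.017), a call lost without replicate 1 (adjusted p = 0.0564) or replicate 2 (adjusted p = 0.061), and Lefty2 had 6.91, 8.35 and 7.93 at day 5, against 7.97, 7.56 and 7.82 at day 0, where the groups overlap.

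FGF pathway genes rose in 11 of 26 cases and fell in 7. The ligands moved in opposite directions: Fgf4, of the naive state, had 5.94, 5.82 and 6.21 at day 5, against 8.48, 8.40 and 8.33 at day 0, and Fgf17 fell by 2.06 (SE 0.14). Fgf5, of the primed epiblast, had 9.77, 9.21 and 9.16 at day 5, against 7.33, 7.96 and 7.92 at day 0, and Fgf8 rose by 0.85 ± 0.14. Etv5 and Etv4, which FGF signals induce, changed by -1.27 (SE 0.08) and -0.95 (SE 0.15), whereas Dusp4, a phosphatase of the same pathway, rose by 1.94 ± 0.17 and the receptor Fgfr2 by 1.40 ± 0.20.

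Among 17 retinoic acid genes 7 rose and 2 fell. Rarb, a receptor gene that retinoic acid induces, had 8.45, 7.09 and 7.38 at day 5, against 4.38, 4.38 and 4.07 at day 0, next to the degrading enzyme Cyp26a1, and Crabp1, a binding protein, had 6.59, 7.06 and 7.20 at day 5, against 8.56, 8.70 and 8.58 at day 0. In the Hedgehog and Notch list 10 of 29 genes rose and 4 fell. Shh, the ligand of anterior endoderm and notochord, had 6.76, 8.10 and 7.62 at day 5, against 5.50, 5.50 and 5.25 at day 0, and the receptor gene Ptch1 had 9.28, 10.28 and 10.32 at day 5, against 8.52, 8.24 and 8.33 at day 0. For both, replicate 1 lay below the other day 5 arrays and above day 0. The effectors Gli1 and Gli2 changed by -0.64 (SE 0.18) and -1.17 (SE 0.16), the call of Gli1 being lost without replicate 1 (adjusted p = 0.0624). The Notch targets Hey1 and Hes1 rose by 1.42 ± 0.17 and 1.16 ± 0.15.

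Cell guidance genes rose in 20 of 39 cases and fell in 4 (median 0.52), and in 23 and 2 without replicate 1. Sema6d, a transmembrane semaphorin, rose by 2.57 ± 0.35, the semaphorin receptor Plxna2 by 2.45 ± 0.19 and the ephrin Efna5 by 2.39 ± 0.15. Slit2, a repellent, had 8.27, 9.30 and 9.27 at day 5, against 6.67, 6.82 and 7.06 at day 0, and its receptor gene Robo1 had 9.95, 8.53 and 8.72 at day 5, against 7.17, 6.92 and 7.24 at day 0. Replicate 1 was thus the lowest day 5 array for the ligand and the highest for the receptor. Epha2, an ephrin receptor of naive cells, fell by 1.30 (SE 0.10). Among adhesion genes, N-cadherin, Cdh2, had 8.65, 9.16 and 8.78 at day 5, against 6.22, 6.65 and 6.90 at day 0, and E-cadherin, Cdh1, had 10.97, 10.11 and 10.09 at day 5, against 10.32, 10.30 and 10.37 at day 0. The Cdh1 arrays overlap between the days and the gene did not pass (adjusted p = 0.842). Of 33 cadherins and junction genes 14 rose and 8 fell. The desmosomal cadherin Dsc2 rose by 2.87 ± 0.31 and the claudin Cldn6 by 1.05 ± 0.22, while Cldn4 fell by 0.95 (SE 0.13). Jam2, a junction molecule of ES cells, had 4.14, 4.69 and 4.43 at day 5, against 8.74, 8.72 and 8.78 at day 0.

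Of 24 heparan sulphate and proteoglycan genes 12 rose and 3 fell. The glypican Gpc3, a cell surface proteoglycan that binds growth factors, had 11.24, 11.01 and 11.03 at day 5, against 8.69, 8.67 and 8.79 at day 0, and Gpc4 had 10.86, 9.50 and 9.56 at day 5, against 8.68, 8.62 and 8.72 at day 0. Has2, which makes hyaluronan, had 9.58, 10.38 and 10.46 at day 5, against 7.35, 7.57 and 7.89 at day 0. The 3 genes rose on every day 5 array, Gpc3 evenly, Gpc4 most and Has2 least in replicate 1. Lysosome and endocytosis genes rose in 15 of 27 cases and fell in 4, with Npc1, which exports cholesterol from lysosomes, at 1.54 ± 0.15 and the cathepsin Ctsh at 1.72 ± 0.34. Cav1, the caveolar coat protein, fell by 2.88 (SE 0.15).

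Naive pluripotency genes fell in 21 of 22 cases and rose in 0 (median -2.42), and fell in 20 and rose in 1 without replicate 1. The list holds the sorting gene Sox2, without which 20 of 21 fell. Esrrb, a nuclear receptor of the naive network, had 4.66, 4.71 and 4.47 at day 5, against 9.43, 9.07 and 9.21 at day 0. Nr0b1, an orphan receptor on the X chromosome, had 6.09, 4.53 and 4.70 at day 5, against 9.89, 9.59 and 9.64 at day 0. Tfcp2l1, a naive factor, had 7.34, 5.85 and 6.08 at day 5, against 9.61, 9.28 and 9.50 at day 0. Replicate 1 lay above the other day 5 arrays for Nr0b1 and Tfcp2l1 and among them for Esrrb, and over the whole list its median gap to the other day 5 arrays was -0.18. Klf4, Klf2 and Klf5, of the same network, changed by -3.01 (SE 0.15), -2.44 (SE 0.14) and -1.86 (SE 0.09). Mycn, a Myc family member, fell by 2.05 (SE 0.22). Its relative Myc was the only member of the list not called, at 0.37. Members of the same list from the LIF pathway, which maintains the naive state in culture, include Socs3, a target, which had 5.95, 6.38 and 6.75 at day 5, against 8.43, 8.35 and 8.45 at day 0. Stat3 fell by 1.30 (SE 0.09) and the receptor Lifr fell by 0.59 (SE 0.16), whose call was lost without replicate 1 (adjusted p = 0.054).

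Replicate 1 lay lowest for the core factors Pou5f1, Nanog and Utf1. Pou5f1 had 8.41, 9.64 and 9.61 at day 5, against 11 on every day 0 array. Nanog had 8.18, 9.24 and 9.24 at day 5, against 10.94, 10.95 and 10.99 at day 0. Utf1, a chromatin factor of pluripotent cells, had 7.77, 9.07 and 8.97 at day 5, against 10.78, 10.79 and 10.71 at day 0. Every day 5 array lay below every day 0 array, and replicate 1 lay more than 1 below the other day 5 arrays. Of 17 core genes 10 fell and 2 rose (median -1.39), 9 and 1 without replicate 1, where Pou5f1 no longer passed (-1.38, adjusted p = 0.0964). The Pou5f1 call was also lost without any of the day 0 arrays (adjusted p from 0.0508). Among 13 genes of the primed epiblast 5 rose and 0 fell. Otx2, which marks the step out of the naive state and later the anterior embryo, had 11.21, 10.83 and 10.80 at day 5, against 8.36, 8.22 and 8.66 at day 0.

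The deepest falls of all genes were those of Dppa5a and of the zinc finger genes Zfp640 and Zfp980. Dppa5a, which binds RNA in pluripotent cells, had 5.77, 6.55 and 6.17 at day 5, against 12.51, 12.48 and 12.50 at day 0. Zfp640 had 2.26, 2.52 and 2.74 at day 5, against 8.60, 8.69 and 8.45 at day 0. Zfp980 had 3.10, 3.30 and 3.18 at day 5, against 9.15, 9.12 and 9.12 at day 0, and Zfp600 had 2.83, 3.31 and 3.25 at day 5, against 7.43, 7.31 and 7.18 at day 0. The days are far apart for all of them. Zfp980 and Zfp600 lie among similar genes on chromosome 4, so their probe sets may read several of these. Of 16 measured genes of a list of zinc finger and naive network factors, which holds Zfp600 but neither Zfp640 nor Zfp980, 13 fell and 0 rose, 11 without replicate 1. Fbxo15, an F-box protein of ES cells, had 3.47, 3.47 and 3.72 at day 5, against 9.07, 8.83 and 8.75 at day 0. Lncenc1, a long noncoding RNA of naive cells, had 5.32, 5.14 and 5.23 at day 5, against 10.57, 10.33 and 10.54 at day 0. Dppa2, a chromatin protein, fell by 4.79 (SE 0.13), Triml2 fell by 4.53 (SE 0.17) and the annexin Anxa1 fell by 4.25 (SE 0.20). Replicate 1 did not stand apart for Zfp640, Zfp980, Lncenc1 or Dppa2, and for Zfp600 it was the lowest day 5 array.

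Germline and meiosis genes fell in 21 of 29 cases and rose in 0 (median -0.93), with the same counts without replicate 1. Levels were low, with a list mean of 4.195 to 4.327 at day 5, against 5.591 to 5.771 at day 0. With dim genes left out, which leaves fewer members to test, 5 fell. Tdrd12, of the piRNA pathway that silences transposons in germ cells, had 4.42, 4.67 and 4.53 at day 5, against 10.44, 10.29 and 10.22 at day 0, the deepest fall of the list. Hsf2bp, a meiotic recombination factor, had 5.11, 5.19 and 5.52 at day 5, against 9.33, 9.02 and 9.17 at day 0. Mael, of the same pathway as Tdrd12, had 3.01, 3.29 and 3.31 at day 5, against 5.65, 5.07 and 5.63 at day 0. The days do not overlap for any of the 3. Stag3, a meiotic cohesin, fell by 1.71 (SE 0.10), Hormad1, of the chromosome axis, fell by 0.85 (SE 0.18) and Tex14, of the bridges between germ cells, fell by 2.32 (SE 0.12). The 250 bases before the annotated start of each gene were searched for 12 strings. Among them was CACGTG, the letters of the E-box, which read the same on both strands. Many germline promoters are known to be bound by repressors that read the E-box, and no such binding was tested here. Sequences are RefSeq's for build GRCm38.p6. Those of 5 genes that fell are shown 5′ to 3′ on the strand of the gene, with CACGTG in capitals. Sycp3 is chr10:88459337-88459586 on the plus strand, Ddx4 chr13:112652311-112652560 on the minus strand, Mael chr1:166238745-166238994 on the minus strand, Hormad1 chr3:95559427-95559676 on the plus strand and Stag3 chr5:138280259-138280508 on the plus strand.
Sycp3: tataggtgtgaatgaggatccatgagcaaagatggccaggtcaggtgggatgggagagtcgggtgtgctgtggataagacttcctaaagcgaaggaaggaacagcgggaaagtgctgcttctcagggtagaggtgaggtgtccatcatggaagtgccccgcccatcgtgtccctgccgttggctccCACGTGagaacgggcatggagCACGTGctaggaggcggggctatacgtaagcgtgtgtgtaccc
Ddx4: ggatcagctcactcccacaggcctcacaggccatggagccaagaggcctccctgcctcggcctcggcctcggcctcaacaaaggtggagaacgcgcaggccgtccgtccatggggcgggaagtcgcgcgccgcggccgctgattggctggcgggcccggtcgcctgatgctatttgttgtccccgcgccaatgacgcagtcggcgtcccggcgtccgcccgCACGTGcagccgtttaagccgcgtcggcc
Mael: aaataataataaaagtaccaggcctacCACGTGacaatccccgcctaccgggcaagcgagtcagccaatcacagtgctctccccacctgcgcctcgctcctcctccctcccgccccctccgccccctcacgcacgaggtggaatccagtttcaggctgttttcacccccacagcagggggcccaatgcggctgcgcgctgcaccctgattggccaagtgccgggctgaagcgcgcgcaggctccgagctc
Hormad1: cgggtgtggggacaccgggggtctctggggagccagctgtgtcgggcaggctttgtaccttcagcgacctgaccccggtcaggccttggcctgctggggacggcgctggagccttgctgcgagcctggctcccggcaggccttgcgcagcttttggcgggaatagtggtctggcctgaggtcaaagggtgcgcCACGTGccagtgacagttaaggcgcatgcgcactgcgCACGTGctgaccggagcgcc
Stag3: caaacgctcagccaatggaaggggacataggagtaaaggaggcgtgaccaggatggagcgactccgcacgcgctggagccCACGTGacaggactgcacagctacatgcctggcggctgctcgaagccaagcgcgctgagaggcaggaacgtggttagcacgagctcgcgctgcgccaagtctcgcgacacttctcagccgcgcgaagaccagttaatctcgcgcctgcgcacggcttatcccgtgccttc

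Sycp3 and Hormad1 hold 2 matches each and the others 1. Of the 24 germline list genes with such a window, 9 held CACGTG and all 9 fell: Ddx4, Sycp1 (at low levels on both days), Sycp3, Hormad1, Stag3, Mael, Tdrd1, Mov10l1 and Slc25a31. Of the 15 without it 7 fell, Tdrd12 and Hsf2bp among them. By window, 37.9% of those of the list held the letters, against 6.99% of those of all genes tested, 8.26% of genes that fell at least 2-fold and 5.77% of genes that rose at least 2-fold. The share over all windows of the table was 6.02% (1978 of 32851), and over the other gene lists it ran between 0% and 24%. The string was 1 of 12 searched and was chosen for display after its counts were seen. A match of letters does not show that a factor binds there, and a window without it may hold other forms of the site.

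DNA methylation genes fell in 10 of 16 cases and rose in 2 (median -0.45). Dnmt3l, the cofactor of new methylation, had 3.88, 4.74 and 4.26 at day 5, against 9.69, 9.61 and 9.54 at day 0. The enzymes Dnmt3a and Dnmt3b behaved otherwise: Dnmt3a had 7.42, 8.53 and 8.47 at day 5, against 8.01, 7.94 and 7.97 at day 0, and Dnmt3b had 10.11, 9.67 and 9.65 at day 5, against 9.79, 9.95 and 9.92 at day 0. Both overlap between the days because replicate 1 lies on the other side of day 0 than its group, and neither passed (adjusted p = 0.702 and 0.65). The maintenance genes Dnmt1 and Uhrf1 changed by -0.35 (SE 0.06) and -0.54 (SE 0.07). Zfp57, which guards methylation at imprinted loci, had 8.92, 8.70 and 8.77 at day 5, against 10.74, 10.70 and 10.65 at day 0, and its partner Trim28 fell by 0.57 (SE 0.05). Of the dioxygenases, Tet2 fell by 1.12 (SE 0.12), Tet1 fell by 2.45 (SE 0.17) and Tet3 rose by 1.42 ± 0.15.

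Of 36 Polycomb and histone modifying genes 11 rose and 17 fell. Within the repressive complex PRC2 the core subunits fell unequally: Eed had 7.90, 7.97 and 7.76 at day 5, against 9.31, 9.28 and 9.30 at day 0, Suz12 fell by 0.75 (SE 0.07) and the enzyme Ezh2 fell by 0.22 (SE 0.07), a call lost without day 0 replicate 1 or 3 and under quantile normalization (adjusted p up to 0.0902). Mtf2, which recruits the complex, fell by 0.93 (SE 0.06). In PRC1 the chromobox gene of ES cells, Cbx7, fell by 1.14 (SE 0.16) while Cbx2 rose by 0.85 ± 0.15 and Bmi1 by 0.78 ± 0.18. Kdm6b, which removes the mark that PRC2 sets, rose by 0.96 ± 0.10. Kat6b, an acetyltransferase, had 6.92, 7.13 and 6.97 at day 5, against 9.36, 9.15 and 9.20 at day 0, the deepest fall of that list. Of 29 remodelling genes 12 rose and 8 fell, with Satb1, a chromatin organizer, at 1.72 ± 0.16, while Arid5b and the helicase Hells changed by -2.48 (SE 0.08) and -0.96 (SE 0.10).

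Genes of growth fell broadly but by small amounts. All 25 measured genes of ribosome biogenesis and the nucleolus fell (24 without replicate 1), with a median of -0.75. Rrp9, of the snoRNA particle that processes ribosomal RNA, had 7.67, 8.13 and 7.92 at day 5, against 9.16, 9.24 and 9.18 at day 0. Bop1, of large subunit assembly, had 7.72, 7.80 and 7.82 at day 5, against 8.81, 8.83 and 8.74 at day 0. Heatr1, of RNA polymerase I transcription, fell by 0.94 (SE 0.13), Ncl, nucleolin, fell by 0.45 (SE 0.08) and Npm1, nucleophosmin, fell by 0.34 (SE 0.08). Ribosomal protein genes did not share this: of 27 measured, 1 rose and 4 fell, with a median of -0.04. Of 38 DNA replication genes 34 fell and 0 rose (33 without replicate 1; median -0.43). Cdt1, which licenses origins, had 8.64, 8.87 and 8.82 at day 5, against 9.91, 9.61 and 9.73 at day 0, Gins1 and Pole, of the replication fork, changed by -1.0 (SE 0.09) and -0.99 (SE 0.09), and Pcna, the sliding clamp, fell by 0.30 (SE 0.05).

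Of 40 cell cycle genes 23 fell and 5 rose, against 3 risers without day 0 replicate 1. Mybl2, a cell cycle transcription factor, had 7.78, 7.50 and 7.59 at day 5, against 10.38, 10.19 and 10.20 at day 0, and cyclin E, Ccne1, fell by 1.67 (SE 0.10). The inhibitors Cdkn1c and Cdkn1b rose by 1.72 ± 0.11 and 0.76 ± 0.12. Cdk6, a kinase partner of cyclin D, had 6.62, 8.36 and 8.20 at day 5, against 8.63, 8.77 and 8.78 at day 0, and did not pass (adjusted p = 0.181). Replicate 1 was by far its lowest day 5 array. Genes of DNA repair and targets of p53 fell in 18 of 26 cases and rose in 3 (16 and 2 without replicate 1). Brca2, of recombination repair, fell by 1.28 (SE 0.10) and Mdm2, which degrades p53, fell by 0.81 (SE 0.09), while Perp rose by 0.76 ± 0.12.

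Metabolic genes are given by pathway. Of 42 mitochondrial respiratory genes 22 fell and 0 rose (median -0.17): Uqcrc1, of complex III, had 9.75, 9.70 and 9.59 at day 5, against 10.26, 10.36 and 10.25 at day 0, and Atp5g1, of the ATP synthase, fell by 0.73 (SE 0.08). Of 24 amino acid and one-carbon metabolism genes 17 fell and 1 rose. Psat1, of serine synthesis, had 10.12, 9.90 and 9.92 at day 5, against 11.11, 11.12 and 11.16 at day 0, the glutamine transporter Slc1a5 fell by 1.02 (SE 0.11) and Shmt1, of the folate cycle, fell by 1.01 (SE 0.07), and the riser was Glul, glutamine synthetase, at 0.73 ± 0.16. Glycolysis genes split, 12 of 25 risen and 6 fallen. The glucose transporter Slc2a1 had 12.48, 12.22 and 12.23 at day 5, against 11.05, 11.06 and 11.18 at day 0, and the lactate transporter Slc16a1 had 12.30, 11.46 and 11.61 at day 5, against 9.74, 9.73 and 9.75 at day 0. Among genes that rose at least 2-fold, both are among the brightest at day 5, and their days do not overlap. Pfkp, a phosphofructokinase, fell by 1.93 (SE 0.21) and Ldhb, a lactate dehydrogenase subunit, fell by 1.67 (SE 0.11).

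Hypoxia targets rose in 10 of 16 cases and fell in 2 (9 and 3 without replicate 1), with Egln3, an oxygen sensor, at 1.25 ± 0.10, Vegfa, the vascular growth factor, at 1.22 ± 0.17 and Bnip3, of mitophagy, at 1.02 ± 0.09. Pdk1, which inhibits pyruvate dehydrogenase and is also a hypoxia target, fell by 1.15 (SE 0.11). Cpt1a, the entry step of fatty acid oxidation, had 4.78, 6.12 and 5.80 at day 5, against 7.71, 7.21 and 7.55 at day 0. Cholesterol and lipid synthesis genes depended on replicate 1, with 2 of 26 risen and 7 fallen with it and 2 and 14 without it. Insig1, a sterol sensor, had 10.13, 9.37 and 9.41 at day 5, against 10.01, 10.01 and 10.03 at day 0, and the reductase Dhcr7 had 8.66, 8.20 and 8.20 at day 5, against 8.47, 8.64 and 8.56 at day 0. In both, replicate 1 lay at the day 0 level and the other day 5 arrays below it. Without replicate 1 they were lower by -0.62 (adjusted p = 0.00078) and -0.36 (adjusted p = 0.00471).

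MicroRNAs were read only through probe sets for their hairpins, which measure precursor or host RNA and not the mature form. Of 57 precursors 4 rose (7.02%) and 11 fell (19.3%), no more than among all genes, with a median of 0.03. The counts were 6 and 14 without day 5 replicate 1, and 7 fell without day 0 replicate 1. The fallen ones include 5 hairpins of the Mir17 cluster on chromosome 14, whose products promote proliferation, and its relative Mir93. The Mir302 cluster on chromosome 3 is typical of pluripotent and early endoderm cells, is known to act on related targets, and was chosen after its values were seen. Mature sequences are RefSeq's for GRCm38.p6 (53 of the 57 have a hairpin in that table), shown 5′ to 3′ with the seed, bases 2 to 8, in capitals.
miR-17-5p: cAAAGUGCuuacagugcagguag
miR-20a-5p: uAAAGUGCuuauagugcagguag
miR-93-5p: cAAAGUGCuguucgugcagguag
miR-18a-5p: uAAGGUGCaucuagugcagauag
miR-19a-3p: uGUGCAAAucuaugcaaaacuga
miR-19b-3p: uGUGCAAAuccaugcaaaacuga
miR-302b-3p: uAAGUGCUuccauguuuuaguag
miR-302d-3p: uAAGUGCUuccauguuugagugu
By these letters miR-17-5p, miR-20a-5p and miR-93-5p share a seed, miR-19a-3p and miR-19b-3p share another, and so do miR-302b-3p and miR-302d-3p, while the seed of miR-18a-5p is its own here. Their loci on the plus strand are chr14:115043684-115043706 for miR-17-5p, chr14:115044183-115044205 for miR-20a-5p and chr14:115043867-115043889 for miR-18a-5p. Also on the plus strand are chr14:115044048-115044070 for miR-19a-3p and chr14:115044358-115044380 for miR-19b-3p. The same strand holds chr3:127545275-127545297 for miR-302b-3p and chr3:127545665-127545687 for miR-302d-3p, and the minus strand chr5:138165574-138165596 for miR-93-5p.

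Mir17 had 5.64, 6.02 and 5.99 at day 5, against 6.59, 6.12 and 6.46 at day 0. Mir20a had 7.0, 7.01 and 7.07 at day 5, against 7.78, 7.43 and 7.65 at day 0. Mir19a had 6.36, 6.37 and 6.24 at day 5, against 7.10, 6.80 and 7.01 at day 0. The days do not overlap for these hairpins of the cluster, but the distance is small, with day 0 replicate 2 nearest to day 5. The falls were 0.51 (SE 0.15, adjusted p = 0.0102) for Mir17, 0.60 (SE 0.15, adjusted p = 0.00477) for Mir20a and 0.65 (SE 0.16, adjusted p = 0.00299) for Mir19a. Mir18 and Mir19b-1 changed by -0.44 (SE 0.14) and -0.43 (SE 0.15). Calls were lost without day 5 replicate 1 for Mir17 (adjusted p = 0.0572) and Mir19b-1 (adjusted p = 0.0846), and without day 0 replicate 1 for Mir17, Mir18 and Mir19b-1. Mir93 had 5.44, 5.65 and 5.59 at day 5, against 5.98, 5.89 and 6.03 at day 0. The hairpins of the Mir302 cluster did not pass: Mir302b had 6.46, 7.61 and 7.62 at day 5, against 6.04, 6.18 and 6.61 at day 0, and Mir302d had 6.22, 7.31 and 7.20 at day 5, against 5.65, 6.00 and 6.06 at day 0. Replicate 1 lay near the top of the day 0 arrays and the other day 5 arrays well above them. Without replicate 1 both hairpins passed, at 1.34 (adjusted p = 0.0412) and 1.35 (adjusted p = 0.0369). In the imprinted cluster on chromosome 12, at low levels, Mir411 had 4.12, 2.92 and 2.87 at day 5, against 4.05, 4.35 and 4.34 at day 0, with replicate 1 at the day 0 level, and Mir379 fell by 0.73 (SE 0.15). Of the risers, Mir200b, an epithelial microRNA, rose by 0.72 ± 0.25 (adjusted p = 0.0277), a call lost without replicate 1 (adjusted p = 0.145), and Mirlet7i by 0.38 ± 0.10.

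Imprinted genes, which are read from the copy of 1 parent, rose in 18 of 33 cases and fell in 8 (16 and 8 without replicate 1; median 0.63). Igf2, a fetal growth factor, had 10.98, 10.94 and 11.01 at day 5, against 7.84, 7.60 and 8.11 at day 0. Peg3, a zinc finger protein, had 11.06, 10.98 and 11.01 at day 5, against 8.14, 8.15 and 8.12 at day 0. Mest had 10.76, 11.14 and 10.96 at day 5, against 8.64, 8.79 and 8.76 at day 0. The days are far apart, and replicate 1 lies with its group. Grb10, which restrains growth signalling, rose by 2.22 ± 0.15, Zim1, a neighbour of Peg3, by 2.21 ± 0.11 and Cdkn1c by 1.72 ± 0.11. Sfmbt2 had 5.79, 5.85 and 5.87 at day 5, against 9.10, 9.15 and 9.05 at day 0. Phlda2, which restrains placental growth, fell by 1.33 (SE 0.06), the amino acid transporter Slc38a4 fell by 1.28 (SE 0.11) and Gab1, a signalling adaptor, fell by 1.58 (SE 0.07). Gab1 and Sfmbt2 are known for imprinting in the placenta.

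Genes of fibroblasts, cells often used as feeders of ES cultures, fell in 27 of 28 cases and rose in 0 (26 without replicate 1; median -1.73). The mean level of the list was 5.29, 5.40 and 5.44 at day 5, against 7.04, 7.08 and 7.29 at day 0. Col1a1 and Col1a2, the chains of collagen I, had 6.78, 7.01 and 7.04, and 6.77, 7.23 and 7.21 at day 5, against 9.37, 9.55 and 9.77, and 9.79, 9.43 and 10.11 at day 0. Thbs1, thrombospondin, had 7.46, 6.98 and 6.66 at day 5, against 10.46, 10.69 and 10.84 at day 0. Mmp3, a matrix protease outside the list, had 3.76, 3.72 and 3.76 at day 5, against 8.27, 8.10 and 8.20 at day 0. For all of these every day 0 array was higher than every day 5 array. Immediate early and heat shock genes, which stress and handling induce, fell in 14 of 18 cases and rose in 0: Fosb had 6.19, 5.34 and 5.66 at day 5, against 8.96, 8.91 and 8.82 at day 0, and Fos, Dusp1 and Hspb1 changed by -2.44 (SE 0.20), -1.83 (SE 0.13) and -2.52 (SE 0.15). What part other cells or the sort had in the falls of other lists was not tested.

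Of 17 interferon and antiviral genes 6 fell and 0 rose, and 6 fell and 2 rose without replicate 1. Ifitm3 and Ifitm1, membrane proteins of early embryonic cells, had 7.56, 7.71 and 7.41, and 7.77, 8.76 and 8.80 at day 5, against 10.72, 10.81 and 10.75, and 10.57, 10.47 and 10.47 at day 0. The guanylate-binding proteins Gbp2b and Gbp7, of interferon response, split the day 5 arrays: Gbp2b had 4.15, 6.88 and 6.54 at day 5, against 5.57, 5.81 and 6.02 at day 0, and Gbp7 had 4.30, 6.66 and 6.67 at day 5, against 5.23, 5.04 and 5.48 at day 0. Replicate 1 lay below day 0 and the other day 5 arrays above it. Without replicate 1 Gbp7 was higher by 1.41 (adjusted p = 0.000112) and Psmb8, of the immunoproteasome, by 1.03 (adjusted p = 0.000161), while neither passed with it (adjusted p = 0.306 and 0.177). The metallothioneins Mt1 and Mt2 changed by -0.72 (SE 0.15) and -0.99 (SE 0.18), and the iron exporter partner Heph rose by 2.94 ± 0.18.

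**Figure D3:**
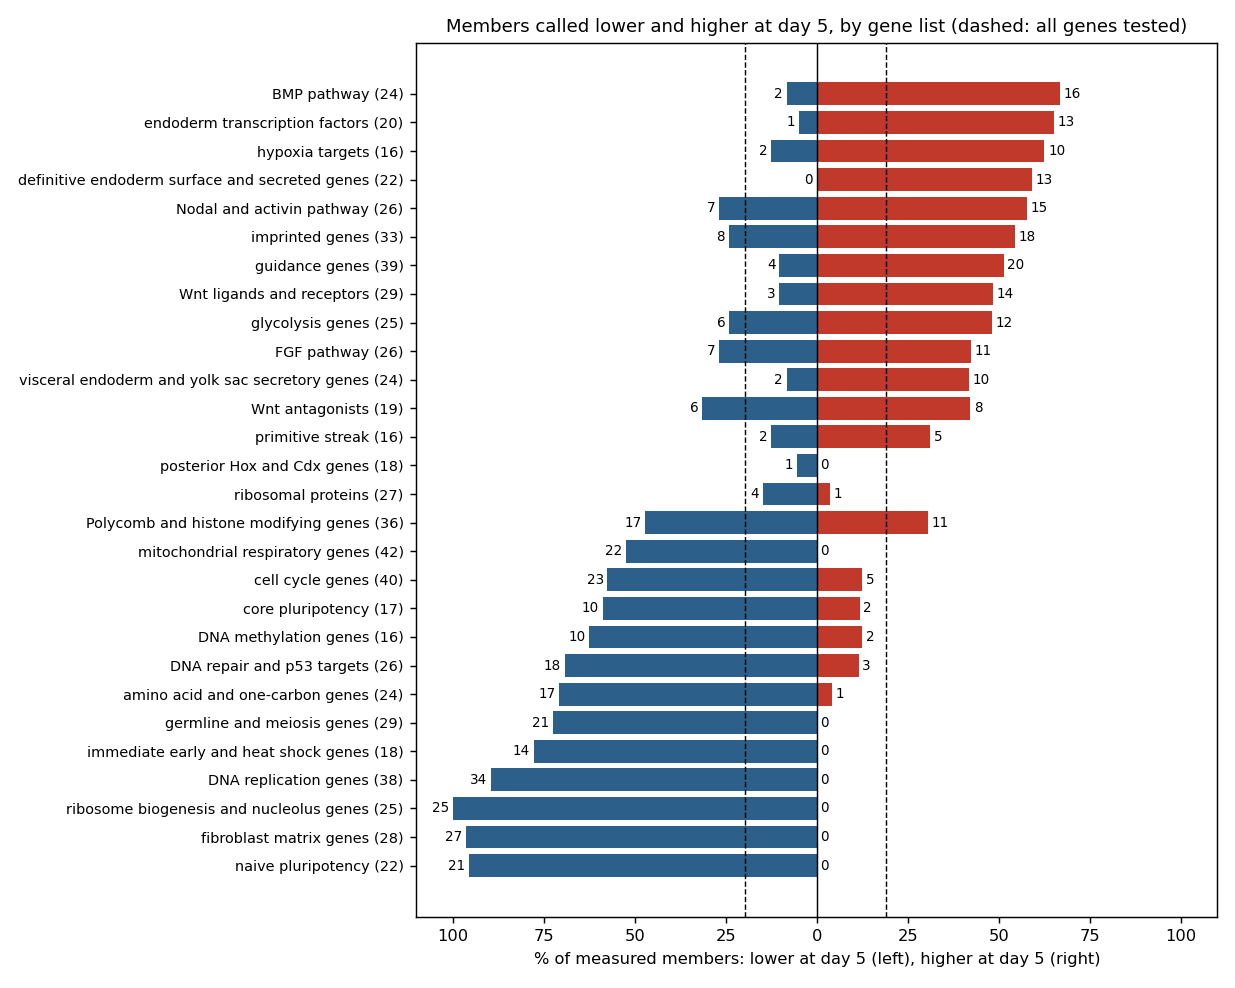
Share of the measured members of each gene list (number measured in brackets) called lower at day 5 to the left and higher to the right, in percent, with the number of genes beside each bar and dashed lines at the 19.7% and 18.9% of all genes tested. Ribosome biogenesis, fibroblast and naive pluripotency genes are called lower almost throughout, BMP and endoderm factor lists mostly higher, and posterior Hox genes and ribosomal proteins mostly not at all.

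Day 5 replicate 1 differed from the mean of replicates 2 and 3 by more than 1 in 354 genes, 227 higher and 127 lower. Among 674 genes that rose at least 2-fold without it, replicate 1 was the higher in 407, and among 575 that fell it was the lower in 326. The median gap between replicate 1 and its group was 0.15 over the 2-fold risers and -0.05 over the fallers. The widest spreads over the day 5 arrays were those of Akr1c19, an aldo-keto reductase, with 8.46, 5.18 and 5.52 at day 5, against 3.16, 2.77 and 3.16 at day 0, and Pyy, a gut hormone, with 10.41, 7.48 and 7.99 at day 5, against 5.82, 5.86 and 5.78 at day 0. Nrp1, a co-receptor of semaphorins, had 9.01, 6.61 and 6.70 at day 5, against 5.18, 5.36 and 5.65 at day 0, and Sstr2, a somatostatin receptor, had 6.66, 4.54 and 4.26 at day 5, against 4.40, 4.45 and 4.30 at day 0. Pcsk1, a prohormone convertase, went the other way, with 4.71, 7.16 and 6.91 at day 5, against 5.18, 5.12 and 5.13 at day 0. Sstr2 was far above day 0 in replicate 1 and close to it on the other day 5 arrays, and Pcsk1 exceeded day 0 in replicates 2 and 3 alone. Higher in replicate 1 were Rfx6, Pyy and Foxa3, and lower were Shh, Bmp5, Slit2, Wif1 and Foxc1, a factor of mesoderm, whose day 5 values were 6.15, 7.17 and 7.48 against 4.75, 4.96 and 5.09 at day 0. Among the day 0 arrays the widest spread was that of Snora44, a small nucleolar RNA, with 7.15, 6.86 and 6.80 at day 5, against 7.63, 8.49 and 7.40 at day 0.

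**Figure D4:**
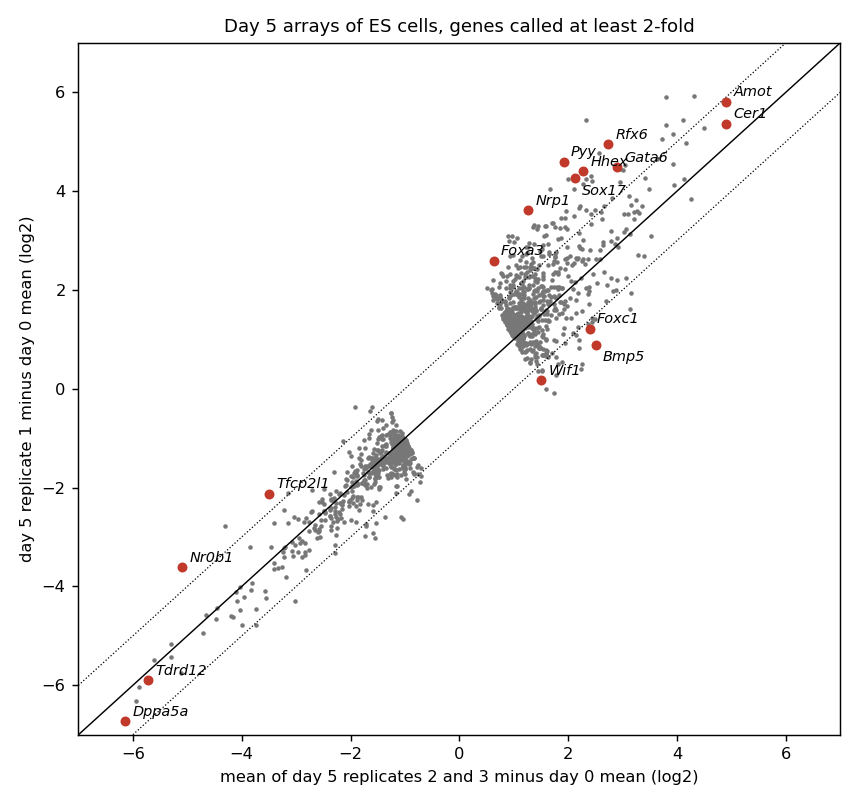
Genes called at least 2-fold, with the difference from the day 0 mean of day 5 replicates 2 and 3 (mean) on the x axis and of day 5 replicate 1 on the y axis, both in log2, and named genes in red. The solid line marks equal differences and the dotted lines a gap of 1: Pyy, Rfx6, Sox17 and Nrp1 lie above the upper one, and Bmp5, Foxc1 and Wif1 below the lower one.

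ES cells labelled after amplification gave 5354 called genes (26.9%) in a fit of their own, 2596 higher and 2758 lower. Of the 1314 genes called at least 2-fold without amplification, 1308 had the same sign there and 1240 were called in the same direction. Of 4615 genes called in both, 4607 shared the direction and 8 did not. Amplified day 5 replicate 1 also stood apart, differing more than 2-fold from its group in 302 and 264 genes, against 23 between replicates 2 and 3. Its deviations from the group mean correlated with those of unamplified day 5 replicate 1 at r = 0.65 over the 19938 genes, which are not independent, and the labels do not say whether same-numbered arrays share RNA. Some differences were much smaller after amplification: Fzd8 rose by 3.34 ± 0.17 without it and 0.43 with it, Esrrb changed by -4.62 ± 0.11 and by -2.08, Rax differed by 2.25 ± 0.44 and 0.10 (adjusted p = 0.55) and Nog by 1.31 ± 0.29 and -0.04 (adjusted p = 0.82). Levels were not set across the labellings.

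The responses of the iPS clones ran close to that of ES cells, and the difference of responses was tested in the same fit. Day 5 differed from day 0 in 9560 genes in ST5 (47.9%) and in 8074 in ST8 (40.5%). Of the 1314 genes, 1237 were called in the same direction in both clones. The ES response differed from that of ST5 in 1112 genes (5.58%), 455 higher (2.28%) and 657 lower (3.3%) in ES cells, and from that of ST8 in 167 (0.838%), 101 higher (0.507%) and 66 lower (0.331%). The counts move with single arrays, from 357 to 3275 against ST5 and from 91 to 649 against ST8 as each is left out: without ES day 5 replicate 1 they were 3275 and 460, without ES day 5 replicates 2 or 3 the count against ST5 was 402 or 357, and without ST8 day 5 replicate 2, which stood apart in its group, the count against ST8 was 649. Both comparisons share the 6 ES arrays. Bmp4 differed by -0.35 ± 0.23 in ES cells, while ST5 had -2.74 and ST8 -2.72, where its day 0 means were 8.63 and 9.06 and that of ES cells 7.04. Cyp26a1 rose by 4.76 ± 0.32 in ES cells, by 3.03 in ST5 and by 2.19 in ST8, with day 5 means of 10.17, 10.56 and 10.01 and day 0 means of 5.41, 7.53 and 7.82 in that order of lines. Rfx6, Rbp4 and Ttr rose less in ES cells than in ST5, by 3.47, 2.26 and 1.52, against 6.15, 4.81 and 4.44. Epha4, an ephrin receptor, rose by 0.85 ± 0.09 in ES cells and was lower at day 5 in ST5 and ST8, with differences of -0.83 and -1.40.

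**Figure D5:**
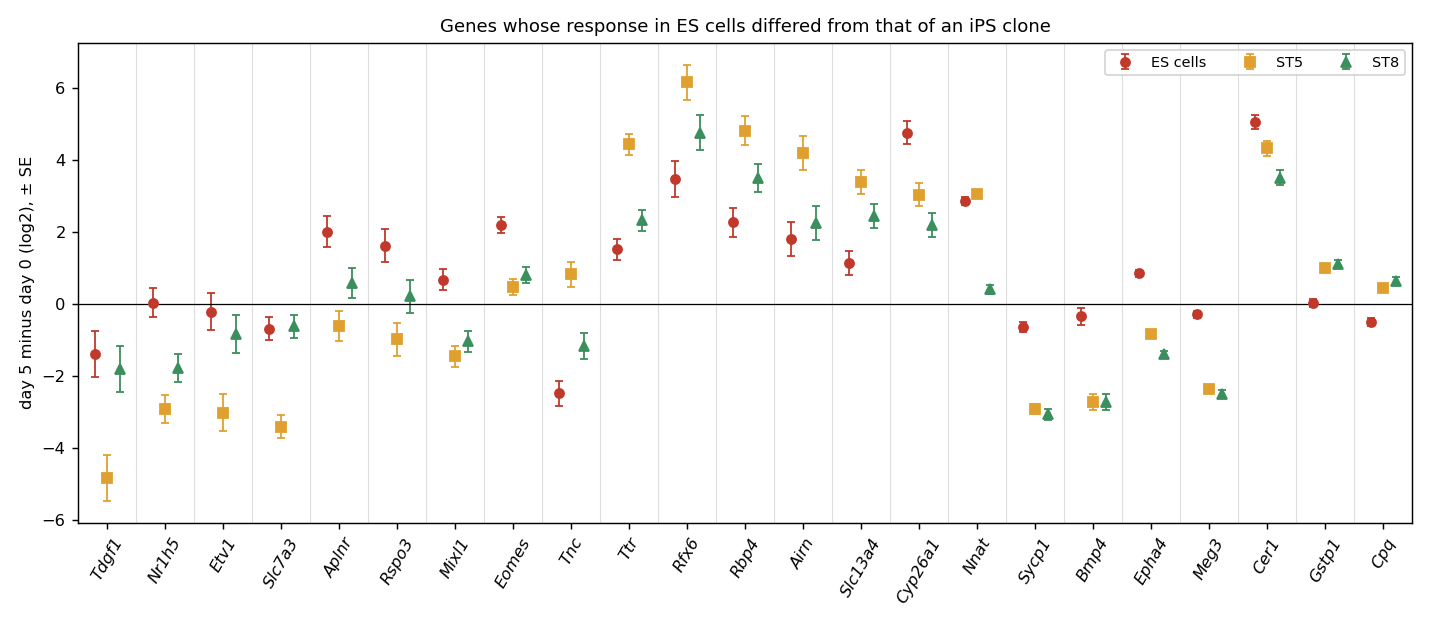
Day 5 minus day 0 (log2, with standard error) in ES cells (circles), ST5 (squares) and ST8 (triangles) for genes whose response in ES cells differed from that of a clone. Bmp4 lies at -0.35 for ES cells, with ST5 at -2.74 and ST8 at -2.72, and Meg3 at -0.29, against -2.36 and -2.50. Rfx6, Rbp4 and Ttr lie highest in ST5.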

How the data were processed

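The arrays are Affymetrix Mouse Gene 1.0 ST arrays. Values are deposited as log2 expression by the authors, per the submitters' processing notes made with RMA, which corrects background, normalizes between arrays and summarises probes; its version and whether all arrays were processed together are not given in the sources used here. Arrays give no read depth, and the 3 arrays of each group limit the precision. Of 35556 probe sets, 21789 name 1 gene in the platform annotation, 1621 name several and 12146 are not listed in it. For the 999 genes with several probe sets the one with the highest mean was used, which left 19938 genes. No sample was dropped or imputed. Group means of the 18 unamplified arrays were fitted with limma 3.58.1 in R 4.3.3 (lmFit and eBayes, 12 residual degrees of freedom), so the iPS arrays lend their spread to the estimate, and two-sided p-values were adjusted by Benjamini-Hochberg over all genes, with calls at an adjusted p under 0.05. The 12 amplified arrays were fitted alone. The fit was tested on simulated data. Members, gene lists and the naming rule were chosen with earlier results of these data known. The rule takes the 15 largest rises and falls among genes with separate groups, up to 4 rises, 4 falls and 2 uncalled genes of each list, the markers, the 6 largest differences of response each way against each clone, the 8 and 4 genes of widest spread at day 5 and day 0, the 5 brightest risers and fallers, and the called microRNA precursors. It leaves out provisional symbols and multigene families. Mature microRNAs and promoter windows are RefSeq's for GRCm38.p6. Alternatives were the 6 ES arrays alone, other scalings, dim genes left out, the mean of probe sets, a trended robust spread, a replicate block and each array left out.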

Additional observations from a re-analysis of the deposited data

Results flagged for a closer look

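The response of ES cells, day 5 minus day 0, differed from that of ST5 in 1112 genes and from that of ST8 in 167, by a test of the difference itself in limma over all genes. Each value below is the ES response minus that of the clone, with its adjusted p. Higher in ES cells than in ST5 were Tdgf1 by 3.45 (0.0372), Nr1h5, a nuclear receptor, by 2.96 (0.00809), Etv1 by 2.8 (0.036), the amino acid transporter Slc7a3 by 2.72 (0.0038), the apelin receptor Aplnr by 2.61 (0.0208) and Rspo3, a Wnt enhancer, by 2.6 (0.0286). The marker genes Eomes and Mixl1 were higher by 1.73 (0.00735) and 2.12 (0.00965). Lower in ES cells were the matrix gene Tnc at -3.31 (0.00268), Ttr at -2.92 (0.00177), Rfx6 at -2.68 (0.0362), Rbp4 at -2.55 (0.0174), the imprinted antisense RNA Airn at -2.39 (0.0454), Slc13a4 at -2.25 (0.0122) and Epcam at -0.65 (0.0217).

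Some of these differences lie in the day 0 level. Eomes had day 5 means of 8.37 in ES cells and 8.44 in ST5, against day 0 means of 6.18 and 7.98. Mixl1 had day 5 means of 6.43 and 6.51, against day 0 means of 5.76 and 7.97. Nr1h5 had day 5 means of 3.14 in ES cells and 6.50 in ST5, against day 0 means of 3.10 and 9.43, so the ES arrays were among the dimmest on both days.

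Against ST8 the response was higher in ES cells for Cyp26a1 by 2.57 (0.0112), Nnat by 2.45 (8.04e-07), Sycp1 by 2.44 (9.01e-06), Bmp4 by 2.37 (0.00137), Epha4 by 2.24 (1.18e-07), Meg3 by 2.21 (4.08e-07) and Cer1 by 1.55 (0.0161). It was lower for the membrane protease Prss8 at -1.2 (0.0455), Mir381 at -1.15 (0.0468), Cpq at -1.14 (0.00178), Gstp1 at -1.09 (0.000861), Mal2 at -1.09 (0.0276) and Kcnk1 at -1.04 (0.00692). Meg3 had day 5 means of 9.95 in ES cells and 5.12 in ST8, against day 0 means of 10.24 and 7.62. Sycp1 had day 5 means of 2.43 and 2.42, against day 0 means of 3.07 and 5.49. Day 5 replicate 1 of ES cells and day 5 replicate 2 of ST8 stand apart in their groups, and their part in single genes of this list was not tested.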

How the results depend on the processing

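Under the other settings 6302 to 7956 genes were called between day 5 and day 0, in place of 7689, the lowest with dim genes left out, where 9969 were tested, and 6694 to 7325 with each of the ES arrays left out. The counts of higher and lower genes then ran from 3240 to 3598 and from 3454 to 3727. Requiring a log2 difference of at least 1 gave 1314, with 724 higher and 590 lower. With a common median 2965 were higher and 4740 lower (38.5% higher, in place of 49%), since that shift moves the median difference to -0.05. Deviations of same-numbered ES arrays from their group means correlated at 0.01, -0.02 and -0.12 between the days. Such values cannot show whether replicate numbers pair the samples. With the replicate block 7358 genes were called, and against ST5 and ST8 the block gave 690 and 73. With each array left out, the count against ST5 ran from 357 to 3275 and that against ST8 from 91 to 649. Against ST5 it was 3275, 402 and 357 without ES day 5 replicates 1, 2 and 3, 498 and 438 without ES day 0 replicates 1 and 3, 483, 616 and 572 without each ST5 day 5 array and 435 without ST5 day 0 replicate 2. Against ST8 it was 460 without ES day 5 replicate 1, 649 without ST8 day 5 replicate 2, 102 without ES day 0 replicate 1 or 3, 107 without ST8 day 5 replicate 3, and 91 and 97 without ST8 day 0 replicates 1 and 3. Amplified arrays gave 4664 calls when only the 6 ES ones were fitted and 4501 to 5001 with each left out. Of 584 genes tracked by name, 453 were called; 418 kept the call under all other settings and 395 with each array left out, and 0 reversed. Of 118 counts of list members that rose or fell, 36 moved by over 1.5 times under at least 1 setting: 21 with dim genes left out, which leaves fewer genes to test, 19 with an array left out and 13 under another setting. Of the 36 counts of 10 or more, 4 moved: germline fallers from 21 to 5, microRNA fallers from 11 to 5 and visceral endoderm risers from 10 to 6 with dim genes left out, and Polycomb risers from 11 to 7 with a common median. MicroRNA fallers also moved to 7 without day 0 replicate 1. Among the smaller counts, cholesterol synthesis fallers moved from 7 to 14 without day 5 replicate 1, ribosomal protein fallers from 4 to 8 with a common median, and endothelial risers from 4 to 1 without day 5 replicate 3 or day 0 replicate 3.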
